A study of Cucumis melo with 12 samples.

Results

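Of the 250 genes listed for radicles of both *B. velezensis* doses, 54 had a lower value than mock at both doses. The 48 of these that carry a melon gene identifier (MELO3C) and are not on the list of mock seeds are described here, out of 3147 radicle identifiers and 3256 in the series. They were thus selected on their values in all 3 radicle groups. The other 6 were left out, 3 because mock seeds list them and 3 because they are XLOC loci, which have no melon gene identifier. Seeds of melon (*Cucumis melo* var. Rochet Panal) were surface-sterilised and held for 90 min either in water, as mock, or in a suspension of *B. velezensis* FZB42. The low dose had a log10 of 7 CFU per ml and the high dose a log10 of 8, and germination took place in darkness. The series holds 12 RNA libraries of seeds and 5-day-old radicles, in 6 groups of 2, and the 6 radicle libraries bear on these genes. Reads were mapped to the genome of another melon, cv. DHL92 v4.

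The radicle is the embryonic root, the first organ to leave the seed, and it grows on stored reserves until the seedling feeds itself. *B. velezensis* FZB42 is a root-colonising bacterium that secretes cyclic lipopeptides (surfactin, fengycin and bacillomycin D), which act on membranes. Plants sense bacteria at the cell surface and can change the transcription of defense, cell wall and redox genes in response. What the 48 genes do is not known here: 0 of the 48 identifiers matched the 28628 genes of the RefSeq melon table, and 0 are among the 16 genes to which the paper's supplementary table gives a description. They are therefore named by identifier, with no function attached, and the labelled tissue was not checked against marker genes.

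The deposited data give 1 value per gene and group, made by the authors from both libraries, and only for selected genes. The values are named FPKM, but 37 mock radicle genes share the value 0.549 and other low values recur at near-even steps. They are thus not per gene length and were read as a relative signal, so a value compares 1 gene between groups, and an order of genes is that of the listed signal only. There is no spread between libraries, so no value below has an error and no difference was tested. The fall below mock was part of the selection and is a description. Because each gene has 1 mock value for both doses, falling at both does not by itself show a common response. In whole radicles, fewer cells that express a gene and less RNA per cell cannot be told apart.

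The 48 genes were well above the floor of the mock list. Their mock values ran from 544.3 to 72412, with a median of 3694, so that the lowest was 991 times the recurring value of 0.549. In all, 2 were under 1000, 36 lay between 1000 and 10000, and 10 were at 10000 or more. For comparison, the median mock value was 2516 over the 1840 genes below mock on the high-dose list only, and 511.6 over the 191 genes above mock at both doses, of which 20 were listed at 0 in mock. A rule that asks for values below mock favours high mock values, so this order is in part set by the selection. Of the 48 genes, 12 were among the 314 highest values of the mock list.

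**Figure D1:**
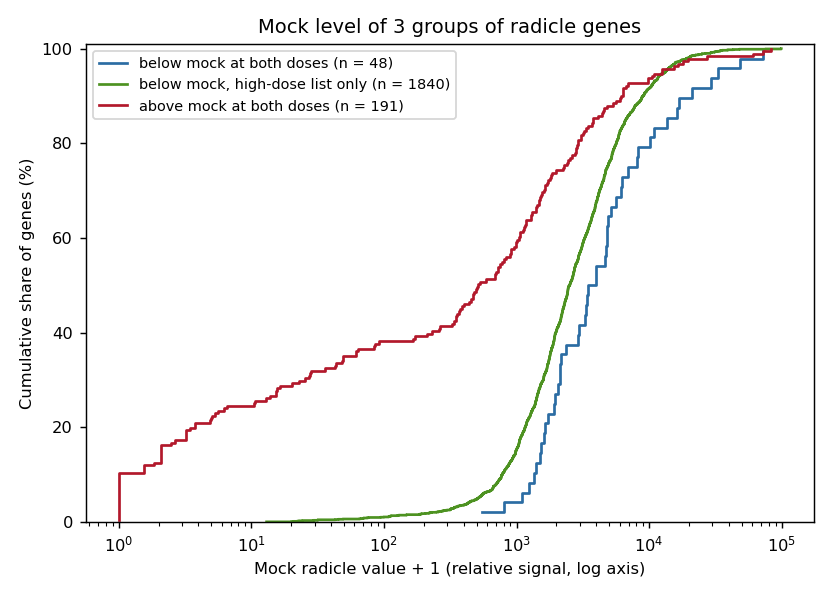
Cumulative share of genes (y, %) against the mock radicle value plus 1 (x, relative signal, log axis) for 48 genes below mock at both doses, 1840 below mock on the high-dose list only and 191 above mock at both doses. The medians were 3694, 2516 and 511.6, and the curve of the 48 genes starts at 544.3, whereas 20 of the 191 start at 0.

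Much of the summed signal of the set came from few genes. MELO3C015995 had a value of 72412 in mock, 28426 in high-dose and 29773 in low-dose radicles. For MELO3C002269 the values were 48015 in mock, 16807 in high-dose and 20364 in low-dose radicles. MELO3C003132 stood at 32865 in mock, 14663 in high-dose and 14794 in low-dose radicles. These were the 3 highest of the 48 genes, in the same order in each group, and together they made up 38.6% of the summed mock value. Summed over the 48 genes, the signal was 36.3% of mock in high-dose and 38.5% in low-dose radicles. Without these 3 genes the sums were 34.6% and 36.1% of mock. Each of the 48 genes is below mock by the selection, so any sum over them has to fall.

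Next in mock level came MELO3C031897, with 29044 in mock, 2812 in high-dose and 6145 in low-dose radicles. MELO3C009334 had 20891 in mock, 5404 in high-dose and 6744 in low-dose radicles. MELO3C005818 had 16807 in mock, 3332 in high-dose and 5660 in low-dose radicles. As listed, all 3 were lower in high-dose than in low-dose radicles, and each made up a smaller part of the summed signal at both doses than in mock. For MELO3C031897 that part was 7.31% in mock, 1.95% in high-dose and 4.01% in low-dose radicles. Among the 48 genes it had rank 4 in mock, rank 13 in high-dose and rank 6 in low-dose radicles. A rank or a part of the sum does not change when every value of a list is multiplied by 1 factor, so this fall relative to the other genes holds under any such factor.

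**Figure D2:**
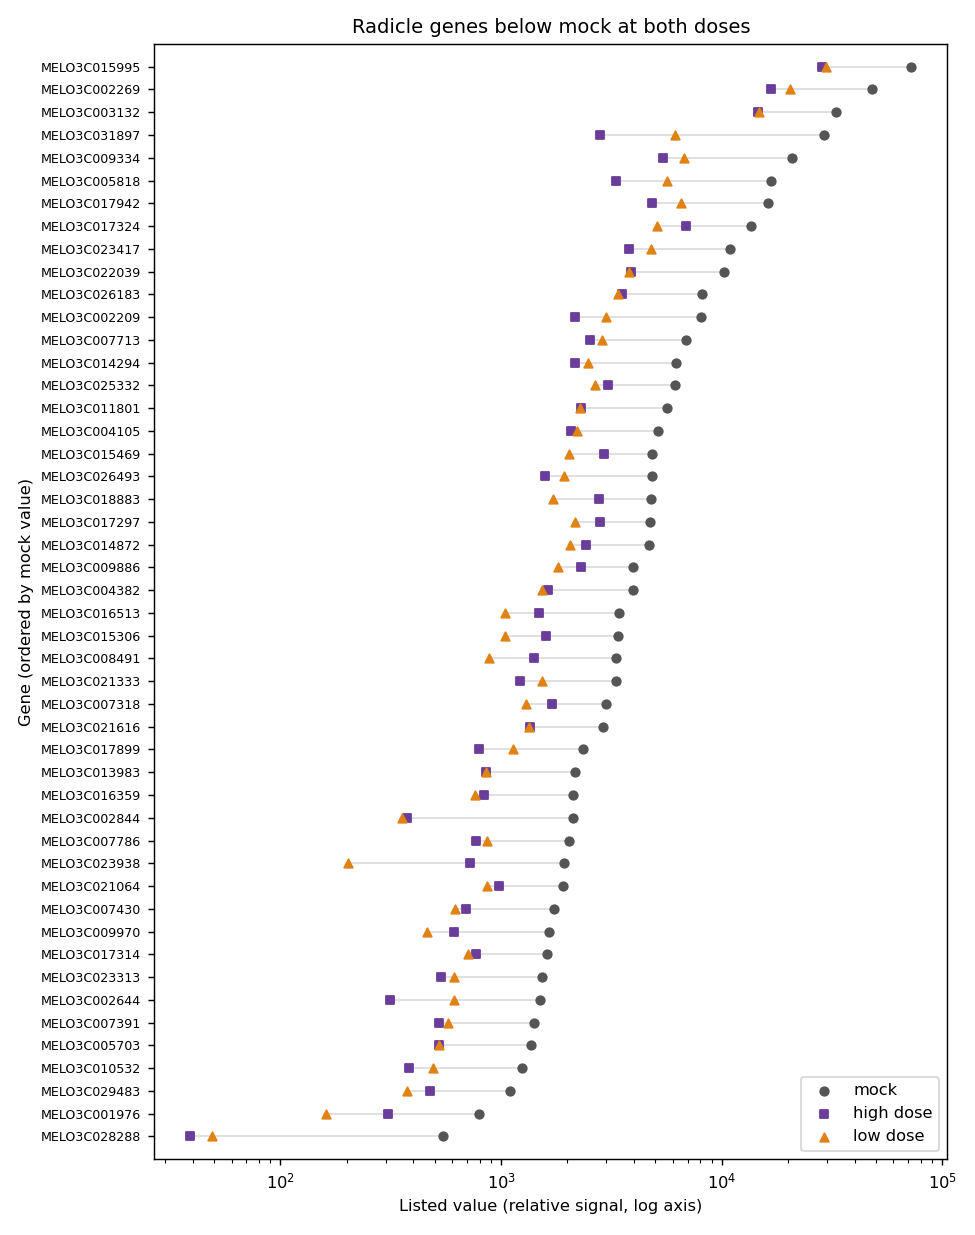
Listed values of the 48 genes (x, relative signal, log axis), ordered by mock value (y), with 1 point each for mock (circle), the high dose (square) and the low dose (triangle). The points are the authors' group values, so there are no error bars. Mock is the rightmost point of every gene by the selection, while the order of the listed doses changes from gene to gene, with the low dose lower in 26 and the high dose lower in 22 (48 and 0 under median ratio scaling).

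In high-dose radicles the value left ran from 7.16% to 60.5% of mock, with a median of 38.8%. On the log2((dose + 1)/(mock + 1)) scale this was -3.77 to -0.73, with a median of -1.36, compared with -0.94 over all 1897 genes below mock on the high-dose list. Of the 48 genes, 40 kept at most 50% of mock and 8 more than that, whereas 24.9% of the whole high-dose list was at most 50% of mock. The contrast was used in the selection, so nothing is read from these counts.

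In low-dose radicles the value left ran from 9.01% to 48.4% of mock, with a median of 40.0%, or -3.45 to -1.05 on the log2 scale with a median of -1.32. Over all 70 genes below mock on the low-dose list the median was -1.33. All 48 genes kept at most 50% of mock, compared with 23.7% of the whole low-dose list, of which 24.1% was below mock at all. Of the 70 genes below mock, which include the 48, 69 were at most 50% of mock. The count of 48 is therefore set by the selection, and nothing is read from it. On the high-dose list 61.1% was below mock, and of the genes on both lists 21.6% were below mock at both doses.

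The values left spanned a narrower range in low-dose radicles, but the lists limit the upper end of each range. Below mock, the whole high-dose list reached up to 65.3% of mock and the whole low-dose list up to 50.7%. The narrower range is therefore not read as a trait of the dose. Of the genes on both lists and below mock, the one nearest to mock was MELO3C015469 in high-dose radicles, at 60.5%, and MELO3C017899 in low-dose radicles, at 48.4%, and both are among the 48. Of the 48 genes, 41 kept between 30% and 50% of mock in low-dose radicles, compared with 32 in high-dose radicles. The same upper ends bear on these counts. The share of all listed genes in this range was not computed, so nothing is read from them. In low-dose radicles 23 of the 48 lay within 1.2 times of that 48.4%, and in high-dose radicles 8 lay within 1.2 times of that 60.5%.

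The edges also bear on the scale of the low-dose ratios. On the whole high-dose list the nearest genes below and above mock were at a log2 ratio of -0.61 and 0.62, which is even around mock. The genes on the low-dose list only were also even, at -0.98 and 0.99. The genes on both lists, however, were at -1.05 and 0.90 in low-dose radicles, with a midpoint of -0.07, which is a factor of 95.1%. In high-dose radicles the same genes were at -0.73 and 0.78, with a midpoint of 0.03. Each midpoint rests on the single nearest gene on either side of mock. In the mock list the 3106 genes of the high-dose list come first, in the order of that list, and the others follow. How the mock values were scaled is not stated in the sources used here, and whether a common factor of this size lies in the low-dose ratios of the 48 genes was not tested. With the low-dose values divided by it, the median left was 42.1% and the largest 50.9%, so that all 48 genes were still below mock.

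A fall to at most 25% of mock was found for 5 genes in high-dose and 5 in low-dose radicles, with 3 on both counts. Of the whole lists, which include genes above mock, 2.22% and 4.12% were at most 25% of mock. These were 69 of the 1897 genes below mock on the high-dose list and 12 of the 70 on the low-dose list. Both of these groups include the 48, and nothing is read from these counts. MELO3C028288 had 544.3 in mock, 38.97 in high-dose and 49.03 in low-dose radicles, which is 7.16% and 9.01% of mock. It had the lowest value of the 48 in every group and the smallest share left at both doses. MELO3C002844 had 2123 in mock, 373.2 in high-dose and 353.8 in low-dose radicles, or 17.6% and 16.7% of mock. It went from rank 34 of the 48 in mock to rank 45 at either dose. The remaining gene of the 3 was MELO3C031897, with 9.68% left in high-dose and 21.2% in low-dose radicles. No gene of the 48 was listed at 0 at a dose, so every ratio rests on values above 0.

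The other genes with at most 25% left were so at 1 dose. MELO3C005818 had 19.8% left in high-dose and 33.7% in low-dose radicles. MELO3C002644 had 1501 in mock, 312.9 in high-dose and 614.5 in low-dose radicles, or 20.8% and 40.9% of mock. In both, the lower value was that of high-dose radicles. In the reverse direction, MELO3C023938 had 1933 in mock, 723.2 in high-dose and 202.4 in low-dose radicles, or 37.4% and 10.5% of mock. MELO3C001976 had 797.8 in mock, 306.1 in high-dose and 161.2 in low-dose radicles, or 38.4% and 20.2% of mock. These last genes were close to the median share of 38.8% in high-dose radicles and among the 4 smallest shares in low-dose radicles.

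**Figure D3:**
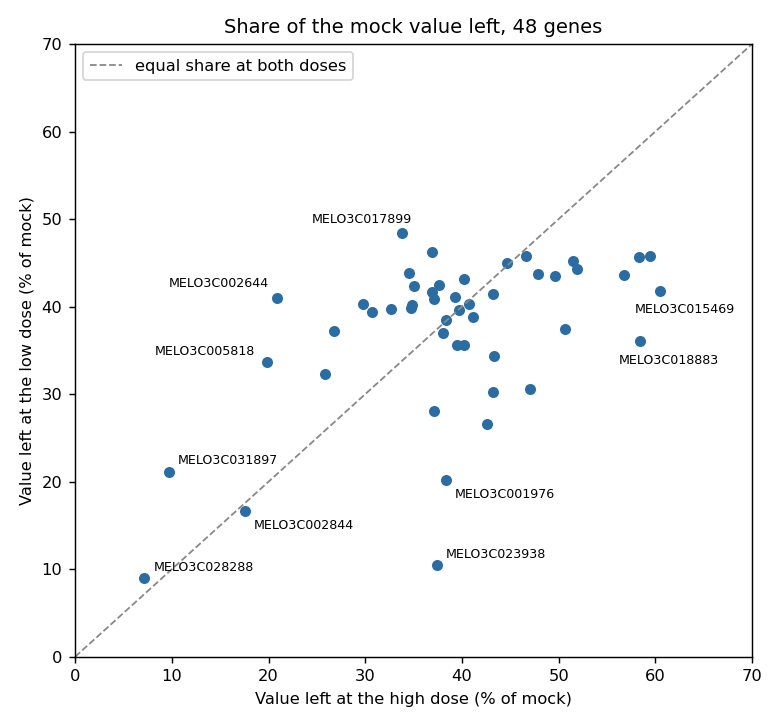
Value left at the low dose (y, % of mock) against that at the high dose (x, % of mock) for the 48 genes, with the line of equal shares. The points end at 48.4% on the y axis and 60.5% on the x axis. MELO3C028288 and MELO3C002844 lie low at both doses, MELO3C023938 and MELO3C001976 low on the y axis, and MELO3C002644 and MELO3C005818 low on the x axis. Both axes share the mock value, so the shape of the cloud is not read as a relation between doses.

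The doses can be set against each other without mock, although both values had to lie below mock by the selection. The low dose was lower in 26 of the 48 genes and the high dose in 22, with a median log2((low + 1)/(high + 1)) of -0.02 and a range of -1.83 to 1.13. Over all 250 genes on both lists the low dose was lower in 27.6%, with a median of 0.19, and over the 191 genes above mock at both doses in 20.4%, with a median of 0.25. The doses were within 1.2 times of each other in 22 of the 48 genes, compared with 43.6% of the genes on both lists and 44% of those above mock at both doses. The numbers 26 and 22 depended on the scale of the lists and on their limits. The limits also bear on the 27.6% and 20.4%. Above mock, the nearest gene on both lists was at a log2 ratio of 0.90 at the low and 0.78 at the high dose. This favours a higher low-dose value there, whereas below mock the limits favour a lower one. Median ratio scaling shifts each list by its median log2 ratio to mock, -0.79 for the high and 1.66 for the low dose. These medians are over selected genes, and 61.1% of the high-dose and 24.1% of the low-dose list were below mock. The scaling put the low dose lower in all 48 genes, with a median of -2.47, an outcome set by the shifts. Quantile normalization put it lower in 31, with a median of -0.21. With the low-dose values divided by the untested factor of 95.1%, the low dose was lower in 21 genes and the median became 0.05. As listed, over the 40 genes at 50% of mock or less at both doses, the low dose was lower in 18. In addition, 9 genes had a high-dose share above 48.4%, and since no gene of the set had a low-dose share above this, all 9 were lower at the low dose. Of the other 39 genes, 17 were lower at the low dose.

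**Figure D4:**
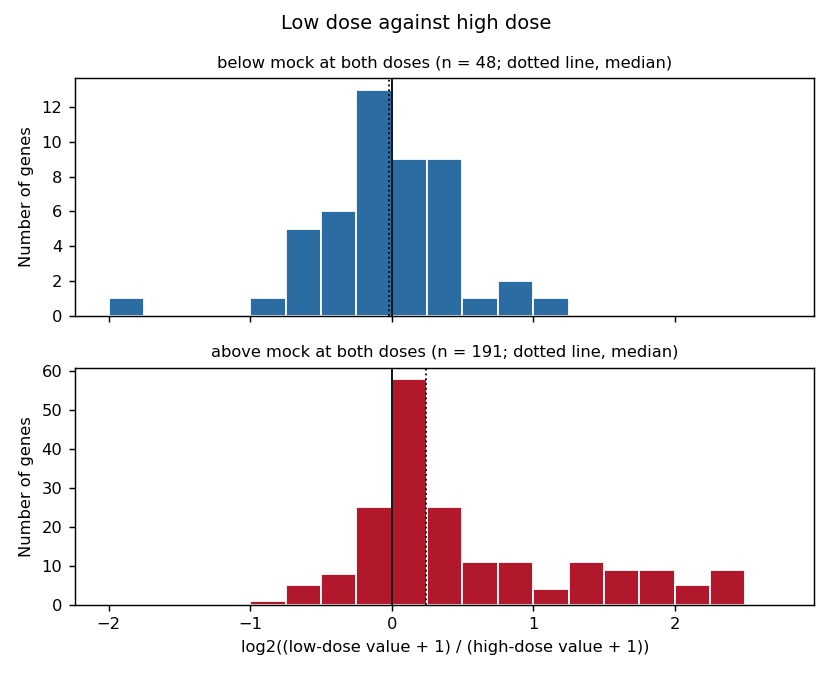
Number of genes (y) by log2((low-dose value + 1)/(high-dose value + 1)) (x) for the 48 genes below mock at both doses (top) and 191 above mock at both doses (bottom), with the medians of -0.02 and 0.25 dotted. As listed, the 48 genes lie on both sides of 0 with MELO3C023938 alone at the far left, at -1.83, and the 191 genes reach 2.47 on the right.

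The doses differed by more than 1.5 times in 8 genes, of which the low dose was the lower in 5 and the high dose in 3. The share of all listed genes past 1.5 or 2 times was not computed, so nothing is read from these counts. The lower and upper quartiles of this log2 were -0.34 and 0.28 over the 48 genes. They were -0.03 and 0.80 over the 250 genes on both lists, and 0.03 and 0.98 over the 191 above mock at both doses. Lower at the low dose, MELO3C023938 had a log2 of -1.83 and MELO3C001976 of -0.92. MELO3C018883 followed at -0.70, with 4767 in mock, 2786 in high-dose and 1720 in low-dose radicles. MELO3C008491 was at -0.68, with 3319 in mock, 1413 in high-dose and 883.7 in low-dose radicles. The fifth was MELO3C015306, named here after its values were seen, with 3397 in mock, 1598 in high-dose and 1041 in low-dose radicles. Lower at the high dose as listed, the log2 was 1.13 for MELO3C031897, 0.97 for MELO3C002644 and 0.76 for MELO3C005818, whereas median ratio scaling turned the direction of all 3 (-1.32, -1.47 and -1.68). MELO3C017899, with 2341 in mock, 790.9 in high-dose and 1132 in low-dose radicles, was next at 0.52. The 2 genes past 2 times were MELO3C023938 and MELO3C031897, in opposite directions.

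As listed, genes with the highest mock values were in larger part lower at the high dose than the rest of the set. Of the 10 genes with a mock value of at least 10000, 8 were lower at the high dose, with a median log2 of low against high dose of 0.30. Of the 38 genes under 10000, 14 were lower at the high dose, with a median of -0.08. Over all 250 genes on both lists the low dose was the lower in only 27.6%. The high dose was thus mostly the lower there too, and the 8 of 10 is not read as a trait of genes with high mock values. The exceptions among the 10 were MELO3C017324, with 6897 in high-dose and 5108 in low-dose radicles, and MELO3C022039, with 3895 and 3784, named after their values were seen. With the low-dose values divided by the untested factor of 95.1%, the counts were 9 of 10 and 18 of 38. They were 6 of 10 and 10 of 38 under quantile normalization, and 0 of 10 and 0 of 38 under median ratio scaling. Median ratio scaling moves the log2 of low against high dose by nearly the same amount in every gene. It therefore changes these counts but hardly the difference between the medians of the groups of genes. The bound of 10000 was chosen after the values were seen, and the difference between these groups of genes was not tested.

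The genes nearest to mock show the limits of the set. MELO3C015469 had 4850 in mock, 2934 in high-dose and 2025 in low-dose radicles, so 60.5% and 41.8% of mock were left. MELO3C017297 had 4717 in mock, 2803 in high-dose and 2160 in low-dose radicles, with 59.4% and 45.8% left. In low-dose radicles, MELO3C021333 came after MELO3C017899, with 3307 in mock, 1220 in high-dose and 1528 in low-dose radicles, or 36.9% and 46.2% of mock. Just outside the set, on the other side of mock, was MELO3C018031, with 1844 in mock, 3157 in high-dose and 3466 in low-dose radicles, or 171% and 188% of mock. MELO3C025324 had 173% and 189% of mock in high-dose and low-dose radicles, and MELO3C005430 had 209% and 187%. No gene on both lists lay between 60.5% and 171% of mock in high-dose radicles or between 48.4% and 187% in low-dose radicles. The lists hold only selected genes, so this gap is theirs and not a property of the set. Under median ratio scaling 4 of the 48 genes were no longer below mock at the high dose, with MELO3C017297 at a log2 of 0.03, MELO3C015469 at 0.06 and MELO3C018883 at 0.01.

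The 31 genes not named by the rule for the text, which takes out the extremes, spanned a narrower range. Their mock values ran from 1094 to 16281. The values left ran from 26.8% to 58.3% of mock in high-dose and from 28.1% to 45.8% in low-dose radicles, with a median of 40.2% in both. Their log2 of low against high dose ran from -0.62 to 0.47. MELO3C013983 had 2159 in mock, 857.3 in high-dose and 854.3 in low-dose radicles. MELO3C005703 had 1362 in mock, 522.0 in high-dose and 524.0 in low-dose radicles. These examples were picked after the values were seen because their doses were nearest to each other, the low-dose value being 99.7% and 100.4% of the high-dose value.

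The genes left out of the set had falls mostly within its range. Of those that mock seeds list, MELO3C006464 had 2528 in mock, 458.2 in high-dose and 509.4 in low-dose radicles. MELO3C015556 had 6362, 2492 and 2834 in the same order, and MELO3C023802 had 2906, 1393 and 1216. Of the XLOC loci, XLOC_006243 had 1888 in mock, 122.7 in high-dose and 215.9 in low-dose radicles. Its high-dose share of 6.50% was below that of each of the 48 genes. XLOC_020406 kept 32.3% and 43.4% of mock at the high and low dose, and XLOC_043581 kept 45.4% and 33.9%. Of the 14 genes below mock on the low-dose list only, whose median was -1.31 on the log2 scale, 2 had a smaller share left than any of the 48. MELO3C016527 had 1226 in mock and 16.94 in low-dose radicles (1.38%), and MELO3C018003 had 3732 and 119.1 (3.19%). These genes have no high-dose value here.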

How the data were processed

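Libraries were assigned to groups by their titles. Bowtie2 and SAMtools are named in the submitters' processing notes. According to the paper's methods, libraries were rRNA-depleted and directional (the labels name polyadenylated RNA), with melon cv. DHL92 v4 as the reference genome. How the 2 libraries of a group were combined is not stated in the sources used here. The deposited values, named FPKM by the authors, were treated as signal of unstated scale. They hold no read counts, so the depth behind a value is unknown and no interval is given. Values under 1e-10 were taken as 0.

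Genes of both dose lists with a value below mock at both doses were kept if they carry a MELO3C identifier and are absent from the mock seed list. Shares of mock and log2 ratios with a pseudocount of 1 were computed. No test was run, since there are no values per library. The members and lists were chosen with earlier results of these data known. Named genes are the 6 highest in mock, the 4 with the smallest share left and the 2 nearest to mock at each dose, the 4 with the largest difference between doses in each direction, members listed at 0 (0 found) or in the paper's table (0 found), and the 2 nearest above mock at each dose. Alternatives were a pseudocount of 0.1 or none, quantile normalization, median ratio scaling, a mock value of at least 10 or 100, at most 50% of mock at both doses, and keeping seed-listed genes or XLOC loci. The tools were Python (3.11.15), pandas (2.3.3), numpy (2.4.6) and matplotlib (3.10.9), and the selection was tested on simulated data.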

Additional observations from a re-analysis of the deposited data

How the results depend on the processing

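With 1 value per group, fits per library, leaving out each replicate and the replicate block were not run. No paired analysis was possible because each column combines both replicates of a group. The number of genes in the set, the median mock value, the median log2 values and the counts of genes below stayed within 1.5 times under both pseudocount settings, both minimums, the 50% bound and with seed-listed genes or XLOC loci kept. The scalings moved values. Quantile normalization was run over the 250 genes on both lists, of which 191 were above mock at both doses, so it also depends on which genes were listed. It gave a median log2 of -2.18 for the high and -2.30 for the low dose against mock. The selection applied to these values took 64 genes in place of 48. Median ratio scaling shifts a whole list by its median log2 ratio to mock (-0.79 for the high and 1.66 for the low dose). The lists hold only selected genes, so these shifts depend on which genes were listed. The scaling gave medians of -0.58 and -2.98, with 44 of the 48 genes below mock at both doses. Between doses it gave a median of -2.47 with all 48 genes lower at the low dose, and -1.32 for MELO3C031897, -1.47 for MELO3C002644 and -1.68 for MELO3C005818, changes of sign that follow from the shift. Dividing the low-dose values by a common factor, added after the data were seen, kept every median and count within 1.5 times. Since no read counts are listed, what depth limits was not computed.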
